A study of Mus musculus with 6 samples.

Results

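Transcript levels of 10 genes of the ETS family of transcription factors were examined in mouse leukemia cells and in wild-type pro-B cells. The genes were taken by symbol from a table of 33924 genes: Etv1, Etv4, Etv5, Etv6, Elk3, Elk4, Ets1, Ets2, Erg and Fli1, and all 10 were found. The study concerns a mouse model of B-cell acute lymphoblastic leukemia that joins an Mll-Af4 fusion with activated Ras, and its title names inhibition of MEK, the kinase upstream of ERK, and of ATR, a kinase of the replication checkpoint. The RNA libraries described here were 6, all from cells for which the labels give no inhibitor. Of these, 2 came from leukemia 1 and 2 from leukemia 92, both Mll-Af4/ N-RasG12D, and 2 from wild-type pro-B cells sorted from bone marrow as B220+ CD43+ IgM- cells. For the leukemias, marrow cells positive for c-Kit and Sca1 were taken from Mll-Af4 mice aged 6 to 8 weeks and received a Cre retrovirus marked with TdTomato and then a retrovirus carrying N-RasG12D. Recipients irradiated with 900 rads were given 250000 of these cells together with 200000 helper marrow cells of wild-type mice, so host and helper cells can remain in such animals. Mutant N-Ras is therefore expressed from a retrovirus in both leukemias, the labels identify each leukemia only by its number, and the controls carry neither the fusion nor the mutant Ras. The labels number 2 replicates in each group without saying whether they are separate animals or cultures. The spread within a pair may therefore be only technical, and p-values that rest on that spread alone may measure no more.

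ETS factors share a DNA-binding domain that recognises a GGAA core. Several are end points of the Ras to ERK pathway: ERK phosphorylates ELK factors, which act with SRF at immediate early genes, and it also phosphorylates ETS1 and ETS2, while transcription of the PEA3 group (Etv1, Etv4 and Etv5) is held down by the repressor CIC until ERK signalling relieves it. In blood, Erg and Fli1 maintain stem and progenitor cells, Ets1 serves lymphoid development, and Etv6 is needed for marrow haematopoiesis and is a frequent fusion partner in childhood B-cell leukemia.

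Gene counts summed to 22153444 to 27444759 per library. Levels are given as CPM, gene counts relative to library size, after scaling of the libraries by the TMM method. The libraries of leukemia 1 stood apart from each other: the SD of the log2 differences between replicates was 1.04, against 0.253 for leukemia 92 and 0.249 for pro-B cells. Summed levels of 12 granulocyte markers were 16330 CPM in replicate 2 of leukemia 1, against 180 CPM in replicate 1 and 422 to 790 CPM in the other 4 libraries. Pro-B markers were high in all 6 libraries, with sums of 4423 to 6524 CPM in leukemia and 7097 and 6338 CPM in pro-B cells, but Dntt stood at 0 to 1.11 CPM in leukemia against 970 and 604 CPM in pro-B cells. The sorted pro-B libraries also carried transcripts of other cells, with sums of 480 and 458 CPM for 11 T and NK markers, against 5.81 to 71.3 CPM in leukemia. Their sums for 6 markers of plasmacytoid dendritic cells were 2055 and 2364 CPM, against 204 to 249 CPM in leukemia.

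In leukemia against pro-B cells, Etv4 and Etv5 rose, Etv1 fell, and the other 7 genes did not pass the test. The comparison set the summed counts of each of 2 leukemias against 2 pro-B libraries, and edgeR's quasi-likelihood test was used, with calls at an adjusted p (Benjamini-Hochberg, over all genes tested) under 0.05. Of 15280 genes tested, 20.2% were called, 9.54% higher in leukemia and 10.7% lower. At 2 higher and 1 lower of 10, the ETS genes were called about as often as all genes. Their median log2 change was 0.12, beside 0.02 over all genes tested. At an unadjusted p under 0.05 in edgeR, 7 of the 10 ETS genes were counted, beside 5922 of all 15280 genes. In 4 of the 10 genes (Etv4, Etv5, Ets2 and Erg) all 4 leukemia libraries lay above both pro-B libraries, an arrangement seen in 23.4% of all genes. In 3 (Etv1, Elk3 and Ets1) all lay below, as did 27.3% of all genes, and in Etv6, Elk4 and Fli1 the groups overlapped.

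**Figure D1:**
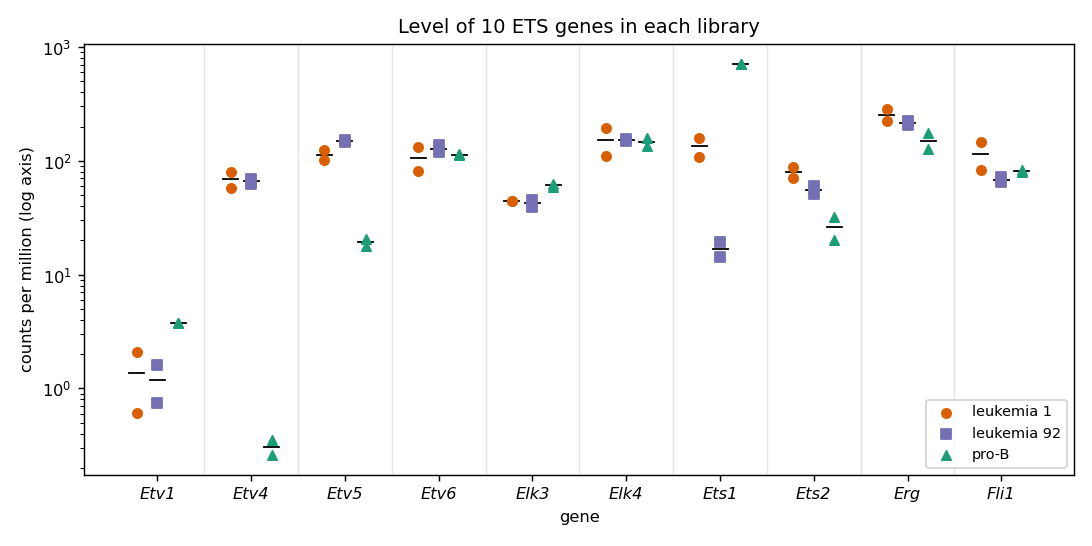
CPM (log axis) of the 10 ETS genes in each of 6 libraries, coloured by group, with a black line at the mean of each pair. Etv4 is below 1 CPM in both pro-B libraries and above 50 CPM in all 4 leukemia libraries, and the leukemia 92 pair of Ets1 lies far below the leukemia 1 pair.

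Etv4, an activator of the PEA3 group, was nearly silent in pro-B cells and clearly expressed in every leukemia library. It stood at 58.1 and 80.2 CPM in the replicates of leukemia 1, at 69.9 and 63.0 CPM in those of leukemia 92, and at 0.259 and 0.351 CPM in pro-B cells, where it had 7 and 9 counts. The 2 leukemias overlapped, and no leukemia library came near the pro-B pair. The mean was 67.8 ± 9.57 CPM (SD, n = 4 libraries) in leukemia and 0.305 ± 0.0648 CPM (SD, n = 2) in pro-B cells, and the log2 change was 7.80 (SE 0.22, adjusted p = 0.00648 with edgeR), or 223-fold. In bulk RNA, a difference in the number of cells that express a gene and one in RNA per cell cannot be told apart. Granulocyte markers summed to 180 and 16330 CPM in the replicates of leukemia 1, and without replicate 2 of leukemia 1 the change was 7.66 (adjusted p = 0.00677 with edgeR). Monocyte and macrophage markers summed to 477 to 1840 CPM in leukemia and to 558 and 574 CPM in pro-B cells. In pro-B cells, Ccr2 and Ly6c2 made up most of the sum. Of the 8 markers, 2 were called higher in leukemia and 6 were not called. The called genes were F13a1 and Csf1r, the latter higher in every leukemia library (138 to 463 CPM against 3.55 and 5.26 CPM). Ly6c2 reached 212 CPM in replicate 2 of leukemia 1. Its other leukemia levels, 13.8 to 27.9 CPM, lay below those of pro-B cells (150 and 165 CPM). Ccr2 and Cd68 overlapped between the groups. Cd14 was above both pro-B libraries in every leukemia library, most of all in leukemia 92. The part of these cells in the level of Etv4 was not tested.

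Etv5, another activator of the group, was present in pro-B cells and rose further in leukemia. Its levels were 123 and 102 CPM in leukemia 1, 152 and 147 CPM in leukemia 92, and 18.0 and 20.6 CPM in pro-B cells. All 4 leukemia libraries were several times above both pro-B libraries, and leukemia 92 was above leukemia 1. The log2 change was 2.77 (SE 0.23, adjusted p = 0.0132 with edgeR), a 6.84-fold rise. Of the 50-base stretches of Etv5 transcripts in GENCODE M21, 24.5% also occur in Gm4798, which had at most 0.288 CPM in any library. For Etv1 the share was 9.08%, mostly with Gm5454, at most 0.111 CPM. Reads from shared stretches may have been left out of the counts or given to the other gene, and this was not tested.

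Etv1, the third of the group, had the opposite direction at a low level. It stood at 0.609 and 2.11 CPM in leukemia 1, at 1.60 and 0.747 CPM in leukemia 92 and at 3.78 CPM in both pro-B libraries. Each leukemia library lay below the pro-B pair, with counts of 15 to 57 against 102 and 97. The log2 change was -1.53 (SE 0.33, adjusted p = 0.0465 with edgeR). This call was lost when any single library was left out: adjusted p was 0.143 and 0.0675 without replicates 1 and 2 of leukemia 1, 0.0534 and 0.0639 without those of leukemia 92, and 0.434 and 0.422 without those of pro-B cells. It was also lost without a filter on low counts (adjusted p = 0.0629 with edgeR) and when all 6 libraries entered singly (0.101). Among the alternatives run, the calls of Etv4 and Etv5 were lost only when 1 pro-B library was left out, with adjusted p of 0.0907 and 0.0891 for Etv4 and 0.145 and 0.138 for Etv5 without pro-B replicates 1 and 2. No gene of the whole table was called in edgeR in either case, where 2645 and 2650 genes had an unadjusted p under 0.05.

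CIC binds octamers of the form TGAATGAA, TGAATGGA, TCAATGAA and TCAATGGA. RefSeq promoter windows (GRCm38.p6, 250 bases before to 50 after a start) were at hand for 7 of the 10 genes, 13 windows in all, and not for Etv4, Ets1 and Fli1. None of the 13 windows held one of these octamers on either strand, while 3.84% of 32851 mouse windows did. The shorter TGAATG, the first 6 letters of TGAATGAA and TGAATGGA and chosen after the sequences were seen, occurred 3 times in 1 of the 2 Etv5 windows and in none of the other 12. At least 1 copy is in 12.7% of all windows and at least 3 are in 0.17%. The 250 bases before that Etv5 start (chr16:22438369-22438618, minus strand) are printed 5′ to 3′ beside those before the first Etv1 start (chr12:38779832-38780081, plus strand), since both genes belong to the group and moved in opposite directions. Capitals mark TGAATG or its reverse complement, and GENCODE M21 has no exon within either stretch.
Etv5: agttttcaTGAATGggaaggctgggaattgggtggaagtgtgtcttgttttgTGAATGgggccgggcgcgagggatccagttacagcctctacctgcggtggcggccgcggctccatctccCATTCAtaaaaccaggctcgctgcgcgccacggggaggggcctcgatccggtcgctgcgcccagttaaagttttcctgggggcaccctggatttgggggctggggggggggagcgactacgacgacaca
Etv1: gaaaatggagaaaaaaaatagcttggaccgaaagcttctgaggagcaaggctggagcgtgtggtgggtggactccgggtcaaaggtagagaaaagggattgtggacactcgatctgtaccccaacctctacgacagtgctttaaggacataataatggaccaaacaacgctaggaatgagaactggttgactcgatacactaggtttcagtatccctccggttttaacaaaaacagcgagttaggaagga
The ETS core GGAA, which can share letters with the end of these motifs, was found 6 times in this Etv5 window and 5 times in this Etv1 window, and 96.0% of all windows hold at least 1. These are matches of letters and were not measured as binding.

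**Figure D2:**
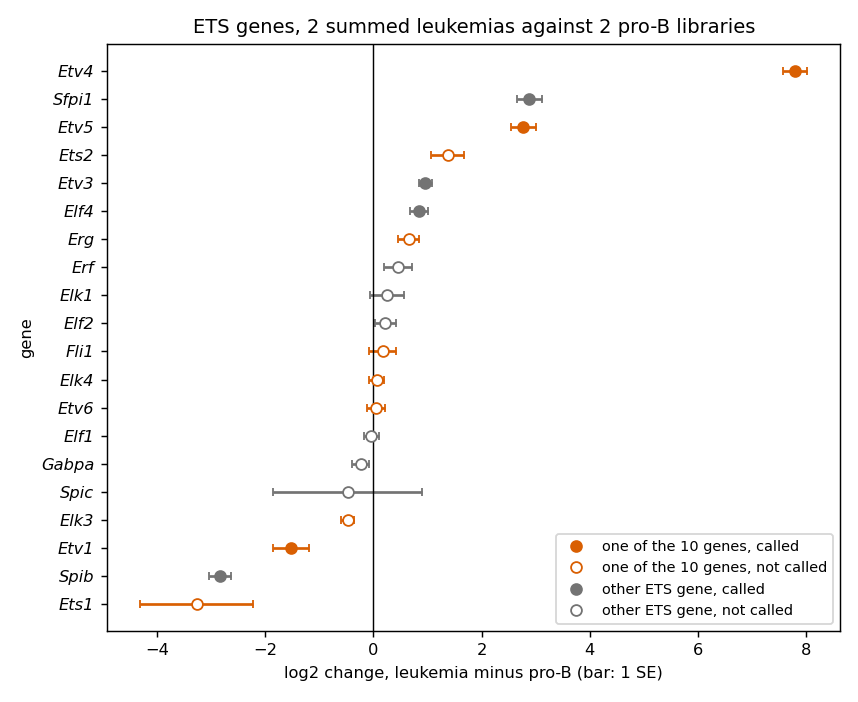
Log2 change of leukemia minus pro-B for the 10 ETS genes (orange) and the 10 other ETS genes that could be tested (grey), with bars of 1 SE, where filled points are called. Etv4 at 7.80 is farthest to the right, and Ets1 at -3.27 is farthest to the left with an SE of 1.04.

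Ets1, a lymphoid ETS factor, was the most abundant of the 10 genes in pro-B cells and was low in leukemia by amounts that differed between the leukemias. Its levels were 160 and 109 CPM in leukemia 1, 14.4 and 19.4 CPM in leukemia 92, and 715 and 709 CPM in pro-B cells. All leukemia libraries lay below both pro-B libraries, and leukemia 92 lay below leukemia 1. The log2 change was -3.27 (SE 1.04), which did not pass the test (adjusted p = 0.103, unadjusted p = 0.0347 with edgeR). It was called when the 6 libraries entered singly (log2 change -3.90, adjusted p = 0.00122 with edgeR), where the distance between the leukemias no longer counts as spread, and by DESeq2 (adjusted p = 0.000263). Set against pro-B cells alone, leukemia 1 was at -2.46 and leukemia 92 at -5.39 on the log2 scale. Ets1 is also expressed by T and NK cells, whose summed markers were higher in the pro-B libraries as given above, and 4 of the 11 markers were called lower in leukemia. The NK receptor Ncr1 was at 63.8 and 59.6 CPM in pro-B cells and at 0 in 3 of 4 leukemia libraries, whereas the T-cell gene Cd3e, at 2.67 and 1.91 CPM in pro-B cells, was at 3.84 CPM in replicate 2 of leukemia 1 and at 0 to 0.325 CPM in the other leukemia libraries. Cd3d and Cd3g were likewise higher in that library than in either pro-B library. Their part in the level of Ets1 was not tested.

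Ets2, which ERK phosphorylates, was on the other side. It stood at 70.4 and 88.1 CPM in leukemia 1, at 50.8 and 59.8 CPM in leukemia 92 and at 20.3 and 32.0 CPM in pro-B cells. Every leukemia library was above both pro-B libraries. The log2 change of 1.37 (SE 0.31) just missed the threshold (adjusted p = 0.0527 with edgeR). It passed without replicate 1 of leukemia 92 (adjusted p = 0.0398), without a filter on low counts (0.0399), with the 6 libraries singly (0.0172) and with DESeq2 (0.000878).

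Erg, a factor of stem and progenitor cells, was well expressed throughout. It had 285 and 224 CPM in leukemia 1, 208 and 224 CPM in leukemia 92, and 174 and 126 CPM in pro-B cells. The leukemia libraries were all above the pro-B pair by a small margin. The log2 change was 0.65 (SE 0.20) and was not called (adjusted p = 0.0995 with edgeR), although DESeq2 called it (adjusted p = 0.037).

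Fli1, the closest paralog of Erg and next to Ets1 in the genome, was near the pro-B level in 3 of 4 leukemia libraries. Its levels were 147 and 83.2 CPM in leukemia 1, 71.7 and 65.0 CPM in leukemia 92, and 79.1 and 82.2 CPM in pro-B cells. Leukemia 1 lay above the pro-B pair and leukemia 92 below it. The log2 change of both leukemias was 0.17 (SE 0.25, adjusted p = 0.655 with edgeR). In RefSeq's gene order (GRCm38.p6) Ets1 and Fli1 are neighbours on chromosome 9, and Ets2 and Erg on chromosome 16, with 0 protein-coding genes between them. Ets2 and Erg were both higher in every leukemia library, whereas Ets1 was lower in every leukemia library and Fli1 overlapped. Differences between neighbours were not tested.

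Endothelial cells and megakaryocytes also express Erg and Fli1. Summed levels of 8 endothelial markers were 324 to 557 CPM in leukemia and 210 and 213 CPM in pro-B cells, of which Pecam1, which leukocytes share, made up 316 to 553 and 168 and 167 CPM. Of the 6 endothelial markers that could be tested, 1 was called higher in leukemia and 2 lower. Tek was at most 0.117 CPM in any library, and Cdh5 stood at 1.63 to 2.10 CPM in leukemia against 29.6 and 32.7 CPM in pro-B cells. The 7 megakaryocyte and platelet markers summed to 0.813 to 6.87 CPM in leukemia and to 1.07 and 6.24 CPM in pro-B cells. The part of these cells in the levels of Erg and Fli1 was not tested.

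Elk3, which represses with SRF until ERK phosphorylates it, was tightly measured. It stood at 44.2 and 44.0 CPM in leukemia 1, at 45.6 and 39.1 CPM in leukemia 92 and at 62.6 and 59.0 CPM in pro-B cells. All leukemia libraries lay below the pro-B pair. The log2 change was -0.48 (SE 0.12, adjusted p = 0.0586 with edgeR), short of the threshold. It passed without replicate 1 of leukemia 92 (adjusted p = 0.0466), with the 6 libraries singly (0.0301) and with DESeq2 (0.0154). Elk3 transcripts in GENCODE M21 share 5.9% of their 50-base stretches with Cdk17, an expressed gene that was also lower in every leukemia library. Cdk17 ranged from 34.7 to 58.5 CPM over the leukemia libraries, while pro-B replicates 1 and 2 had 97.9 and 94.0 CPM. The part of reads from these stretches in the change of Elk3 was not tested. Elk4, another partner of SRF, had 196 and 109 CPM in leukemia 1, 155 and 150 CPM in leukemia 92, and 158 and 135 CPM in pro-B cells, so the groups overlapped. Its log2 change was 0.06 (SE 0.14, adjusted p = 0.784 with edgeR).

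Etv6, a repressor, also overlapped between groups. It had 131 and 81.6 CPM in leukemia 1, 137 and 119 CPM in leukemia 92, and 114 and 113 CPM in pro-B cells. The log2 change was 0.05 (SE 0.17, adjusted p = 0.840 with edgeR). Both Elk4 and Etv6 were higher in replicate 1 than in replicate 2 of leukemia 1, the pair that spread widest over all genes.

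Leukemia 92 was then compared with leukemia 1 in a fit of all 6 libraries. Of 14979 genes tested, 3.09% were called, 1.82% higher and 1.27% lower in leukemia 92. Of the 10 ETS genes, 0 were called higher and 1, Ets1, was called lower. At an unadjusted p under 0.05 in edgeR, 3 of the 10 were counted, beside 3759 of the 14979 genes. DESeq2 also called 0 of the 10 higher and 1 lower, but of all genes it called 1322 higher and 1345 lower. Ets1 was at 134 ± 35.9 CPM (SD, n = 2) in leukemia 1 and 16.9 ± 3.57 CPM (SD, n = 2) in leukemia 92, a log2 change of -2.99 (SE 0.26, adjusted p = 0.0261 with edgeR), or 7.94-fold lower. Ets1 was also called with RLE scaling (adjusted p = 0.0266 with edgeR), without a filter on low counts (0.013), at a minimum count of 50 (0.0224) and by DESeq2 (3.09e-23). The call was lost without a library of leukemia 92 or of pro-B cells and kept without a library of leukemia 1. Such fits leave 1 library in a group, and their log2 changes ran from -3.24 to -2.68. With only the 4 leukemia libraries in the fit, adjusted p was 0.140 with edgeR, and 0 genes of the whole table were called. T and NK markers summed to 5.81 and 71.3 CPM in leukemia 1 and to 11.2 and 8.46 CPM in leukemia 92, and their part in this difference was not tested.

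The other 9 genes did not pass this test. Fli1 had a log2 change of -0.75 (SE 0.29, adjusted p = 0.196 with edgeR) and Ets2 of -0.52 (SE 0.27, adjusted p = 0.296), and both leukemia 92 libraries lay below both leukemia 1 libraries in each. Etv5 had a change of 0.41 (SE 0.15, adjusted p = 0.183 with edgeR) with both leukemia 92 libraries above. Etv4 was at -0.06 (SE 0.21, adjusted p = 0.888 with edgeR), and the remaining changes ran from -0.23 for Erg to 0.26 for Etv6. Elk4 depended on the libraries of leukemia 1: the change was 0.00 with both, 0.49 without replicate 1 and -0.36 without replicate 2 of leukemia 1. Without replicates 1 and 2 of leukemia 1 in turn, Fli1 was at -0.273 and -1.098 and Etv5 at 0.556 and 0.28. Etv6 was at 0.654 and -0.036 and Etv4 at -0.262 and 0.195. These fits left a single library of leukemia 1, so only the log2 changes are given.

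**Figure D3:**
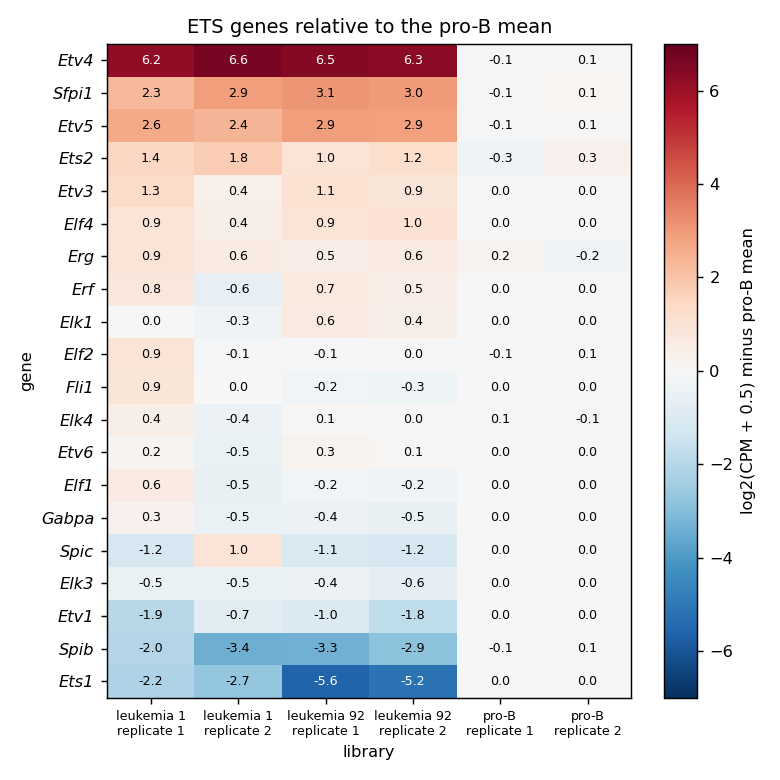
Log2(CPM + 0.5) minus the pro-B mean for 20 ETS genes (rows, ordered by log2 change) in 6 libraries (columns), from blue (lower) to red (higher). Etv4, Sfpi1 and Etv5 are above 2 in all leukemia libraries, and Ets1 is near -2.5 in leukemia 1 and below -5 in leukemia 92.

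Of 17 further ETS genes, 16 were in the table and 10 could be tested. In leukemia, 3 rose, 1 fell and 6 did not pass the test, with a median log2 change of 0.24. Over all genes tested, 9.54% were called higher and 10.7% lower, with a median of 0.02. The rise of Sfpi1 was the largest of the 3 rises. Sfpi1 encodes PU.1, a factor of myeloid and early B cells, with levels of 115 and 181 CPM in leukemia 1, 201 and 191 CPM in leukemia 92, and 21.6 and 25.8 CPM in pro-B cells (log2 change 2.88, SE 0.23, adjusted p = 0.0128 with edgeR). Its relative Spib, which B cells and plasmacytoid dendritic cells express, moved the other way, from 503 and 572 CPM in pro-B cells to 131 and 50.3 CPM in leukemia 1 and 52.6 and 72.1 CPM in leukemia 92 (log2 change -2.84, SE 0.21, adjusted p = 0.0115 with edgeR). Of the 6 plasmacytoid dendritic markers, 4 were called lower in leukemia, Siglech among them at 15.0 to 33.9 CPM against 1368 and 1544 CPM in pro-B cells. The other 2 overlapped, Cox6a2 at 35.0 to 94.7 CPM in leukemia against 34.0 and 44.7 CPM, and Pacsin1 at 26.7 to 119 CPM against 102 and 119 CPM. The part of these cells in the level of Spib was not tested. Likewise untested is the part of monocyte and macrophage markers in Sfpi1: they summed to 477 and 951 CPM in leukemia 1, 1840 and 1656 CPM in leukemia 92, and 558 and 574 CPM in pro-B cells.

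The other rises were smaller. The repressor gene Etv3 was at 140 and 71.5 CPM in leukemia 1, at 117 and 99.7 CPM in leukemia 92, and 55.3 and 54.7 CPM in pro-B cells (log2 change 0.96, SE 0.12, adjusted p = 0.0191 with edgeR). Elf4 was at 371 and 261 CPM in leukemia 1, at 374 and 392 CPM in leukemia 92, and 191 and 201 CPM in pro-B cells (log2 change 0.84, SE 0.17, adjusted p = 0.0438 with edgeR). Without replicate 1 of leukemia 1 both calls were lost (adjusted p = 0.135 and 0.124 with edgeR), which left 1 ETS gene of this set called higher. With the 6 libraries singly, the call of Etv3 was lost (adjusted p = 0.0687 with edgeR) and that of Elf4 kept (0.0242). The same held with the replicate number as a block (0.0729 and 0.0499 with edgeR). Elf1 (-0.04), Elf2 (0.22), Elk1 (0.25), Erf (0.46), Gabpa (-0.24) and Spic (-0.48) had log2 changes that did not pass. Elf3, Elf5, Ehf, Etv2, Fev and Spdef were too low to test; Ehf reached 15 counts in replicate 2 of leukemia 1, and Fev had 0 counts in every library. In leukemia 92 against leukemia 1, edgeR called 0 of the 10 tested genes, beside 3.09% of all genes. At an unadjusted p under 0.05 in edgeR, 1 of the 10 was counted, beside 3759 of all 14979 genes.

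Levels of different genes were compared per kilobase of exon (GENCODE M21, which may differ from the annotation behind the counts). Among the 10 genes, the order in pro-B cells was Ets1 at 84.0 CPM per kb, Erg at 43.3, Fli1 at 23.1, Elk4 at 22.9, Etv6 at 18.9, Elk3 at 13.4, Etv5 at 4.71, Ets2 at 4.52, Etv1 at 0.284 and Etv4 at 0.0983. Fli1 and Elk4 did not differ beyond their spread there, and neither did Etv5 and Ets2. In leukemia, as means over 4 libraries, the order was Erg at 67.9 CPM per kb, Etv5 at 31.9, Fli1 at 26.3, Elk4 at 23.8, Etv4 at 21.8, Etv6 at 19.6, Ets2 at 11.6, Elk3 at 9.50, Ets1 at 8.92 and Etv1 at 0.0952. From Etv5 down to Ets1, the range of each gene over the 4 libraries overlapped that of the next, while Erg lay above and Etv1 below all of these. Etv4 thus had rank 10 of the 10 in pro-B cells and rank 5 in leukemia, and Ets1 rank 1 and rank 9. The 2 leukemias differed in part of this order: Ets1 had rank 7 at 15.8 CPM per kb in leukemia 1 and rank 9 at 1.995 in leukemia 92, and Fli1 rank 2 and rank 6.

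Summed over all 26 ETS genes in the table, the level per kb was 576 and 417 in leukemia 1, 463 and 459 in leukemia 92, and 541 and 557 in pro-B cells, so the sums of leukemia and pro-B cells overlapped. The shares of several genes did not overlap, while others such as Etv6, Elf1 and Gabpa did. Spib made up 34.1% of the sum in pro-B cells and 5.39% in leukemia. Ets1 made up 15.3% in pro-B cells, 3.18% in leukemia 1 and 0.433% in leukemia 92. In the other direction, Sfpi1 went from 1.60% in pro-B cells to 13.8% in leukemia, Erg from 7.90% to 14.2%, Etv5 from 0.856% to 6.75% and Etv4 from 0.0179% to 4.68%.

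**Figure D4:**
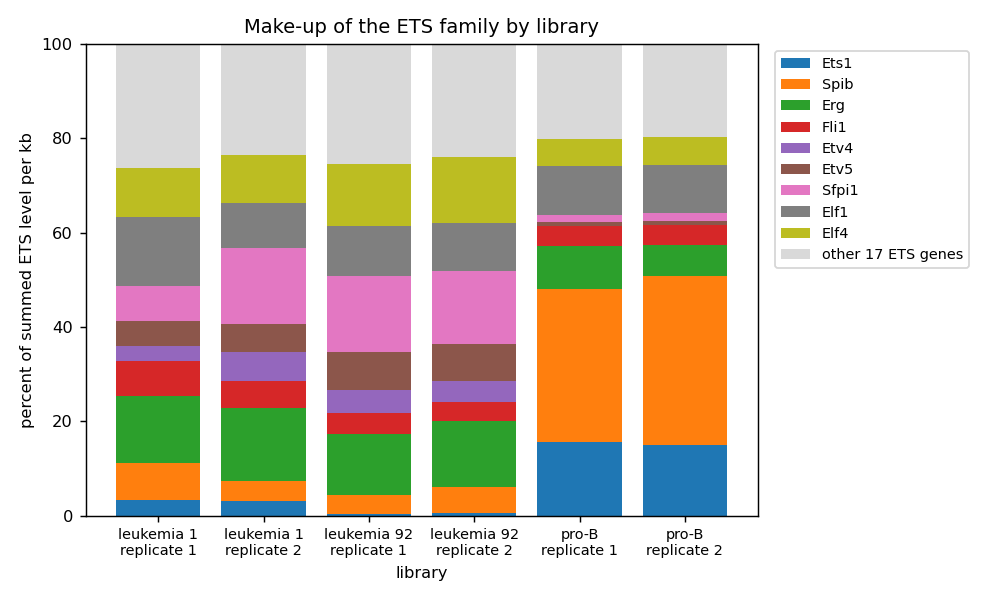
Share (percent) of the summed ETS level per kb held by 9 ETS genes and by the other 17 together, in each of 6 libraries. Ets1 and Spib fill the lower part of both pro-B bars (15.3% and 34.1% on average), and Etv4, Etv5 and Sfpi1 widen in all 4 leukemia bars.

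Genes around the ETS factors were read from lists, to be set beside 9.54% of all genes called higher and 10.7% called lower. Of 11 genes for CIC and its partners and for the COP1 ligase that degrades PEA3 proteins, 1 fell and 10 were not called. The one called was Trib2, an adaptor of COP1, at 47.5 and 41.1 CPM in leukemia 1, at 33.8 and 29.1 CPM in leukemia 92, and 101 and 99.8 CPM in pro-B cells (log2 change -1.40, SE 0.18, adjusted p = 0.0203 with edgeR). Cic itself had a log2 change of -0.29 (adjusted p = 0.601 with edgeR), and the median of the list was -0.29. Of 18 partners and cofactors, 3 rose and 15 were not called, with a median of 0.27. These were Mkl1, a coactivator of SRF (log2 change 0.75), and 2 blood factors that bind beside ETS factors. Runx1 stood at 402 and 188 CPM in leukemia 1, at 212 and 243 CPM in leukemia 92, and 99.3 and 93.9 CPM in pro-B cells (log2 change 1.42, SE 0.15, adjusted p = 0.0162 with edgeR). Tal1 was at 11.9 to 25.0 CPM in leukemia and at 2.11 and 3.39 CPM in pro-B cells (log2 change 2.57, SE 0.35, adjusted p = 0.0218 with edgeR).

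Of 17 reported targets of the PEA3 group that were tested, 10 were called higher in leukemia, 2 lower and 5 not, with a median log2 change of 1.87; over all genes 9.54% were called higher and 10.7% lower, with a median of 0.02. The list was chosen with earlier results of these data known. Several are feedback inhibitors of the same pathway (Dusp4, Dusp6, Spry4, Spred1 and Spred2 rose, Spry2 fell). Vim, the intermediate filament vimentin, stood at 1245 to 1464 CPM in leukemia against 327 and 329 CPM in pro-B cells (log2 change 2.03, SE 0.11, adjusted p = 0.00746 with edgeR). Mmp9, a matrix protease that granulocytes also make, had 12.7 and 409 CPM in leukemia 1, 178 and 133 CPM in leukemia 92, and 4.74 and 4.99 CPM in pro-B cells (log2 change 5.28, SE 0.22, adjusted p = 0.00648 with edgeR). Its high library was the one rich in granulocyte markers, and without it the change was 4.16 (adjusted p = 0.118 with edgeR). Ret, a receptor kinase, fell from 4.96 and 4.33 CPM in pro-B cells to 0.244 to 0.739 CPM in leukemia (log2 change -3.19, SE 0.36, adjusted p = 0.0169 with edgeR). Spry2 stood at 12.1 to 25.6 CPM in leukemia and 31.0 and 42.6 CPM in pro-B cells (log2 change -1.11, SE 0.23, adjusted p = 0.0464 with edgeR), and its call was lost without replicate 1 of leukemia 1 (adjusted p = 0.180), which left 8 genes higher and 1 lower.

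Of 12 reported targets of ELK factors with SRF, 10 rose and 2 were not called, with a median log2 change of 2.32, beside 9.54% of all genes called higher. This list, too, was chosen with earlier results known. Leaving out replicate 1 or replicate 2 of leukemia 1, 8 rose. Of the 10, Fos and Cyr61 overlapped between leukemia and pro-B libraries. Fos was at 141 CPM in replicate 1 of leukemia 1, against 184.5 and 159 CPM in pro-B cells. Cyr61 had counts of 0 and 20 in leukemia 1, 5 and 20 in leukemia 92, and 1 in each pro-B library. Egr3 differed within leukemia 1, at 42.3 and 2.92 CPM, and was at 0.444 and 0.429 CPM in pro-B cells. Egr1, an immediate early gene, stood at 355 and 751 CPM in leukemia 1, at 803 and 713 CPM in leukemia 92, and 72.3 and 68.5 CPM in pro-B cells (log2 change 3.25, SE 0.23, adjusted p = 0.0109 with edgeR). Ier2 had a log2 change of 1.71 (SE 0.15, adjusted p = 0.0133 with edgeR). Reported targets of ETS1, ERG and FLI1 had no common direction: 3 of 13 tested rose, 1 fell and 9 were not called, with a median of 0.79. Over all genes, 9.54% were called higher and 10.7% lower. The 3 genes that rose were Cd79a, a signalling subunit of the B-cell receptor (log2 change 1.60, SE 0.16, adjusted p = 0.0159 with edgeR), Flt1 (2.28) and Tal1. Flt1 was barely detected, at 0.284 to 1.22 CPM in leukemia and 0.148 and 0.156 CPM in pro-B cells. Kdr, a receptor of endothelial cells, fell to 0.0406 to 0.443 CPM from 4.92 and 5.11 CPM (log2 change -4.53, SE 0.41, adjusted p = 0.0137 with edgeR). The counts of this list shifted with 1 library: 2 rose and 3 fell without replicate 2 of leukemia 1, with a median of -0.17, and 5 rose without replicate 1 of leukemia 92.

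**Figure D5:**
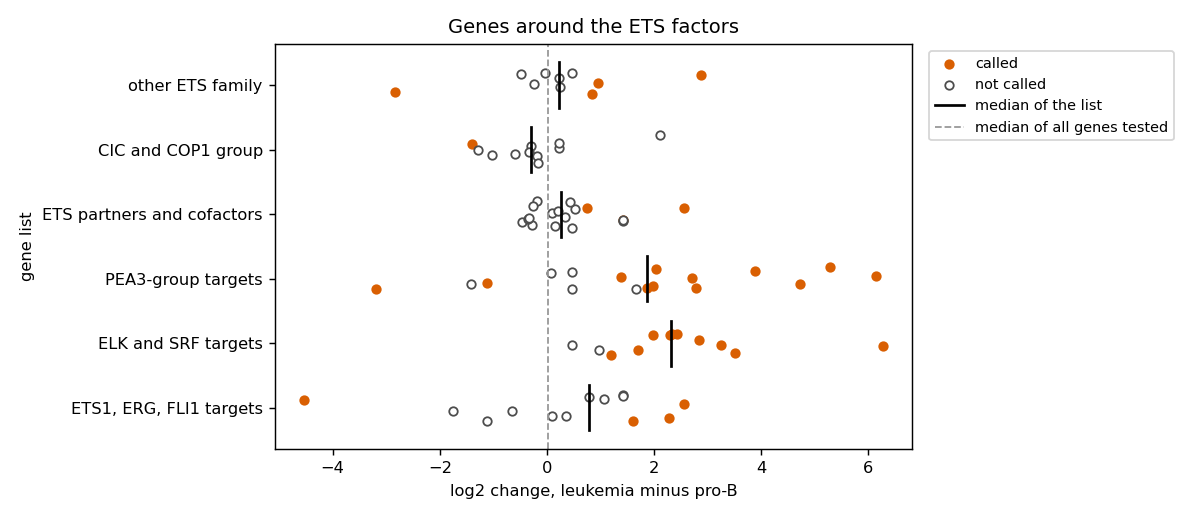
Log2 change of leukemia minus pro-B for the tested genes of 6 lists around the ETS factors, with called genes in orange, list medians as black lines and the median of all genes tested (0.02) dashed. The PEA3-group and ELK with SRF lists lie to the right, with medians of 1.87 and 2.32, and the CIC and COP1 list lies near 0.

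The genes closest to 4 of the factors over the 6 libraries were found by Euclidean distance of log2(CPM + 0.5) minus the pro-B mean. Among those nearest to Etv4 were Bhlhe41 (distance 0.91) and Slpi (1.01). Nearest to Etv5 was Plaur (0.33), at 70.3 and 62.9 CPM in leukemia 1, at 102 and 105 CPM in leukemia 92, and 11.3 and 14.9 CPM in pro-B cells, then Bfsp2 (0.34) and AA467197 (0.36). Nearest to Ets1 was Hes1 (0.64), followed by Rag1 (1.07) and Cbx6 (1.17). Rag1 stood at 73.0 and 30.3 CPM in leukemia 1, at 11.1 and 10.4 CPM in leukemia 92, and 360 and 319 CPM in pro-B cells, and like Ets1 it was lowest in leukemia 92. Nearest to Erg were Nop2 (0.26), Atp2a2 (0.26) and Atp6v1c1 (0.27). These are likenesses of pattern over 6 libraries in 3 groups, with no test.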

How the data were processed

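Values deposited by the authors are unnormalised read counts of genes in 6 libraries. The tools were, in no given order or role and per the submitters' processing notes, STAR 2.4, HTSeq 0.6.1 and DESeq2, and the build was mm9. Annotation and strandedness of counting: not given in the sources used here. Entries naming no gene held 33.97% to 39.56% of a library and were left out, and 0 columns of values were unmatched. Members and gene lists were chosen with earlier results of these data known. Genes were tested with edgeR 4.0.16 (R 4.3.3) after TMM scaling and filterByExpr at min.count 10 (robust quasi-likelihood, two-sided, Benjamini-Hochberg over all genes). For leukemia against pro-B, counts were summed per leukemia number; the leukemias were compared with each other in a fit of all 6 libraries. SE was taken from the F statistic. The procedure was tested on simulated data. Of 172 list entries in 15 lists, 170 matched a symbol.

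Named genes are the 10 members, other ETS genes with at least 10 counts in 1 library, up to 2 called genes per list and direction with the smallest p, and the 3 genes nearest in pattern to Etv4, Etv5, Ets1 and Erg, predicted genes left out; 1 of these is not reported here. ETS genes too low to test are named without values or with their counts. Cic, Mkl1, Flt1, Fos, Cyr61, Egr3, the feedback inhibitors other than Spry2 and the single cell type markers were chosen after their values were seen. Replicate pairs differed by more than sampling noise, so each library was kept. Same-numbered replicates did not deviate together (r = -0.161 between the leukemias, 0.061 and -0.034 with pro-B, over 14979 genes), so numbers were not used as pairs. Alternatives were RLE scaling, other filters on low counts, DESeq2 1.42.0, other sets of libraries and a replicate block. Marker sums also covered erythroid cells (0.617 to 3.40 CPM in leukemia, 51.2 and 119 in pro-B) and stem and progenitor cells (52.8 to 101 CPM, and 203 and 212).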

Additional observations from a re-analysis of the deposited data

Results flagged for a closer look

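Ets1 differed between the 2 leukemias, with a log2 change of -2.99 for leukemia 92 against leukemia 1 by edgeR's test of the difference itself. Both libraries of leukemia 92, at 14.4 and 19.4 CPM, were below both of leukemia 1, at 160 and 109 CPM. The adjusted p was 0.0261 with edgeR, and it was 0.0266 with RLE scaling, 0.013 without a filter and 0.0224 at a minimum count of 50. DESeq2 gave 3.09e-23. With edgeR it was 0.140 with only the 4 leukemia libraries, 0.100 with the replicate block and 0.0829 with the crossed block. In each of these last settings, edgeR called 0 genes of the whole table. The call was also lost without a library of leukemia 92 or pro-B, and kept without a library of leukemia 1.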

How the results depend on the processing

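Over all alternatives, the results of single ETS genes kept their direction and side of the threshold in 209 cases. With direction kept, they gained a call in 25 and lost one in 20. They turned sign in 16, which were counted apart whether called or not. For leukemia against pro-B, ETS genes called higher numbered 2 and lower 1, and all genes 1458 and 1631. DESeq2 gave 4 and 3 ETS genes, beside 2335 and 2434 of all 15280 genes tested. The 6 libraries singly gave 3 and 2 ETS genes, beside 2107 and 2605 of 14979 genes. No filter gave 3 and 0 ETS genes, beside 1496 and 1596 of 23173 genes. Without both libraries of leukemia 1, 4 ETS genes were lower and 4893 and 5241 genes were called; without both of leukemia 92 these were 3, 4659 and 4676. Leaving out 1 library gave 0 to 3 ETS genes higher, 0 to 1 lower, 0 to 1544 genes higher and 0 to 1725 lower. For leukemia 92 against leukemia 1, the counts were 0 and 1 ETS genes and 273 and 190 genes; DESeq2 gave 1322 and 1345. The 4 leukemia libraries alone gave 0 calls in edgeR, with 2366 genes at an unadjusted p under 0.05. Leaving out 1 library gave 0 to 3 ETS genes higher, 0 to 3 lower, 0 to 3909 genes higher and 0 to 4224 lower; without a leukemia 1 library, the widest pair no longer enters the spread. The cause of the other shifts was not tested.

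With the replicate number as a block, the second comparison had 0 calls in edgeR (3042 genes at an unadjusted p under 0.05; Ets1 -2.98, adjusted p = 0.100), and the first had 3 ETS genes higher and 1 lower, Ets1 (adjusted p = 0.0073) among the calls. A block with crossed numbers between the leukemias, chosen after seeing the data, also gave 0 calls in the second comparison, with 2995 genes at an unadjusted p under 0.05.

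Leaving out 1 library, the log2 changes against pro-B ran from -0.088 to 0.193 for Etv6, -0.136 to 0.247 for Elk4 and -0.068 to 0.400 for Fli1, the lowest without replicate 1 and the highest without replicate 2 of leukemia 1. Without both libraries of leukemia 1, Fli1 was at -0.211 and Etv6 at 0.2. Without both libraries of leukemia 92, Fli1 was at 0.454 and Etv6 at -0.145. These fits left a single summed leukemia, so only the log2 changes are given. For leukemia 92 against leukemia 1, the changes ran from -0.841 to 0.964 for Etv1 and -0.262 to 0.195 for Etv4. They ran from -0.036 to 0.654 for Etv6, -0.164 to 0.069 for Elk3 and -0.356 to 0.492 for Elk4. With the 4 leukemia libraries alone, Elk4 was -0.007.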
